A study of Mus musculus with 8 samples.

Results

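The cell cycle and mitosis genes are a set of 38 genes whose transcripts mark cells that are copying their DNA or dividing. Their probes were found by the gene symbol in the deposited array table, and 69 of 56605 probes on the array belonged to them, with at least 1 probe for each of the 38 genes. The genes were sorted by the phase in which their products act into 6 G1/S regulators, 12 S phase genes for DNA replication and nucleotide supply, and 20 G2/M genes. A probe entered the test if 3 or more of the 4 arrays of either group had it well above background; 44 of the 69 probes did, which left 32 genes with a tested probe: 5 G1/S, 12 S phase and 15 G2/M genes. The other 6 genes, Ccne2, Aurkb, Bub1, Bub1b, Kif11 and Tpx2, had no tested probe. A gene with several tested probes is given by its brightest one, and the other probes are named where they differ.

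Arrays measured liver transcripts in NFS/sld females; neonatal thymectomy in this strain serves as a model of primary Sjögren's syndrome. The thymectomised group (Tx, 4 arrays) lost the thymus on day 3 after birth and its livers were taken 8 weeks after that operation. The control group (nonTx, 4 arrays) kept the thymus. The labels state neither the age of the control mice nor a sham operation, and all mice share the strain and sex. Whether every replicate is a separate animal is not stated beyond the word independent, and p-values then reflect only the variation among these samples, which may be technical. Each sample was labelled with 1 dye on 1 Agilent array, and all 8 arrays lay on 1 slide, with nonTx in row 1, Tx in row 2 and the replicate number equal to the slide column. All 10 hepatocyte markers examined passed the filter, with a summed level of 3005 to 3383 times the array's 75th percentile, so the labelled tissue showed its defining transcripts. The share of probes well above background was 51.1% to 57.1% per array, and the 75th percentile of the signal ran from 224.8 to 330.0.

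Most hepatocytes of an adult liver rest outside the cell cycle, and few cells of any kind divide there at a given time. D-type cyclins and E2F factors carry a cell from G1 into S phase, where the MCM helicase, the PCNA clamp and the enzymes that make thymidine and deoxynucleotides copy the genome. Cyclins A and B with CDK1, the Aurora and Polo kinases, spindle motors and the ubiquitin ligase that ends mitosis then act in G2 and M. Transcription follows this order: E2F sites serve the G1/S and S phase genes, while CCAAT boxes and the cell cycle genes homology region (CHR) serve many G2/M genes.

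The 250 bases before the start site are shown for 5 G2/M genes and 1 S phase gene, as examples of the elements such genes are known to share. All 5 G2/M windows shown hold both a CHR and a CCAAT box. Any link between these elements and the array values was not tested. The sequences come from RefSeq (GRCm38.p6), are written 5′ to 3′ along the gene, and stop at the start site. Capitals mark a CHR, a CCAAT box or an E2F motif on either strand, with overlapping motifs joined into 1 run. The CHR was searched as the letters TTTGAA and, in its longer form, as the letters TTTCGAA. The CCAAT box was searched by its own name's letters. The E2F motif was searched as TTTCCCGC, as TTTCGCGC, as TTTGCCGC and as TTTGGCGC. The windows shown, and the values of Ube2c and Cdc20 on every array, were chosen after the array values were seen.
Ube2c (chr2:164769679-164769928, plus strand): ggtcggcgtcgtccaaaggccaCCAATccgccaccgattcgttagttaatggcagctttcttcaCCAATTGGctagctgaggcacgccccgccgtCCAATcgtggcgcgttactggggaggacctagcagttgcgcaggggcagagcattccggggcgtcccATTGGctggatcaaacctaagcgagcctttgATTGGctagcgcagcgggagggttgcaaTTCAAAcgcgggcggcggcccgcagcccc
Cdc20 (chr4:118437344-118437593, minus strand): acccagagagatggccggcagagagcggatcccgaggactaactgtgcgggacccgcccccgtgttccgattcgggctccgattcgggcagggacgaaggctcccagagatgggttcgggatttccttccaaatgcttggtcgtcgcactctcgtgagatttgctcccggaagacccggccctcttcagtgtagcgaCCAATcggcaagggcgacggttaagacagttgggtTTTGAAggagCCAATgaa
Top2a (chr11:99024190-99024439, minus strand): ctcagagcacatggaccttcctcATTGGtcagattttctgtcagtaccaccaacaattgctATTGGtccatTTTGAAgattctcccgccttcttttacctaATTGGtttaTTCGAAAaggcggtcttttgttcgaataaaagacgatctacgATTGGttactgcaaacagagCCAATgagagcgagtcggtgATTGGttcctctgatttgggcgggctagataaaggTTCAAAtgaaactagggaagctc
Mki67 (chr7:135716380-135716629, minus strand): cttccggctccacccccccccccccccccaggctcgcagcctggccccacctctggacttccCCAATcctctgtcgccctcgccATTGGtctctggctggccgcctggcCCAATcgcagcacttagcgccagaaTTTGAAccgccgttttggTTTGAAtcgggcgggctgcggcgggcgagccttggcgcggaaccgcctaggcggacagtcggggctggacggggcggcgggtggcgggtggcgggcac
Cdk1 (chr10:69352913-69353162, minus strand): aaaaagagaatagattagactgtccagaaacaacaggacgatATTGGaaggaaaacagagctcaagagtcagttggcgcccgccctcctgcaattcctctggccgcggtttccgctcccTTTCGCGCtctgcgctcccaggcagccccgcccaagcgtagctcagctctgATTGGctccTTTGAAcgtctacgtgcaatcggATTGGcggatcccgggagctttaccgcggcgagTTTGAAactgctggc
Mcm6 (chr1:128359706-128359955, minus strand): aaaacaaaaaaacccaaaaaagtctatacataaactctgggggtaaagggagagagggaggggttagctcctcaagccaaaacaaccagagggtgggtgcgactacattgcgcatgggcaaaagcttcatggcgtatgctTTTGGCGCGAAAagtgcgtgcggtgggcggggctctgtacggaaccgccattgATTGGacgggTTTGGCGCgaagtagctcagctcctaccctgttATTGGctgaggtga

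Of the 38 members, 30 had a promoter in the RefSeq table, and the first listed was used for the 2 members with several. The CCAAT box was in 13 of 15 G2/M windows (86.7%) and 9 of 11 S phase windows (81.8%), against 33.8% of all 32851 windows of this length. The CHR was in 7 of 15 G2/M windows (46.7%), 3 of 11 S phase windows (27.3%) and 16.5% of all windows. All 7 G2/M windows with a CHR also had a CCAAT box, a pairing found in 5.77% of all windows; they belonged to Ube2c, Cdc20, Top2a, Mki67, Cdk1, Ccnb2 and Kif11. The E2F letters were in 3 of 11 S phase windows (27.3%), those of Mcm5, Mcm6 and Mcm7, in 1 of 15 G2/M windows (Cdk1), in 1 of 4 G1/S windows (Cdc6) and in 1.86% of all windows. Neither the CHR nor the CCAAT box was in any of the 4 G1/S windows. None of these letters was in the windows of Tyms, Tk1, Birc5, Nusap1, Ccne1, Cdt1 and E2f1. Ube2c and Top2a each carried 6 CCAAT boxes, and the Top2a window also held 3 CHR matches. Among G2/M windows, those of Aurka, Birc5, Bub1, Bub1b, Ccnb1, Nusap1, Plk1 and Prc1 held no CHR. These matches describe letters and show no binding.

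The G2/M transcripts were high on 1 array of each group, nonTx replicate 3 and Tx replicate 3. For Prc1, a cytokinesis protein that bundles spindle microtubules, the signal was 24, 41, 231 and 56 on nonTx replicates 1 to 4 and 82, 30, 217 and 60 on Tx replicates 1 to 4. Cdc20, the activator of the ubiquitin ligase that starts anaphase, had 123, 165, 814 and 153 in nonTx and 239, 122, 774 and 215 in Tx. Ube2c, the ubiquitin-conjugating enzyme of that ligase, had 42, 41, 232 and 58 in nonTx and 110, 36, 226 and 77 in Tx. In all 3 genes the array numbered 3 was the highest of its own group and the groups overlapped. After scaling, the Cdc20 level on the array numbered 3 was 4.71 times the next highest array in nonTx and 3.51 times in Tx.

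The other G2/M members followed the same arrays. Mki67, the antigen used to stain proliferating cells, had 72, 108, 302 and 181 in nonTx and 181, 111, 285 and 111 in Tx. Top2a, which untangles sister chromatids, had 23, 42, 168 and 81 in nonTx and 67, 50, 147 and 43 in Tx. Birc5 (survivin), part of the chromosomal passenger complex and the brightest G2/M member, had 178, 276, 912 and 484 in nonTx and 476, 331, 931 and 377 in Tx. On these genes nonTx replicate 1 was the lowest array of its group, and the array numbered 3 was the highest of its group. Aurka, a centrosomal kinase, had 87, 82, 326 and 105 in nonTx and 163, 95, 359 and 116 in Tx. Foxm1, the factor that drives G2/M transcription, varied less, with 27, 30, 63 and 51 in nonTx and 57, 37, 58 and 37 in Tx.

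**Figure D1:**
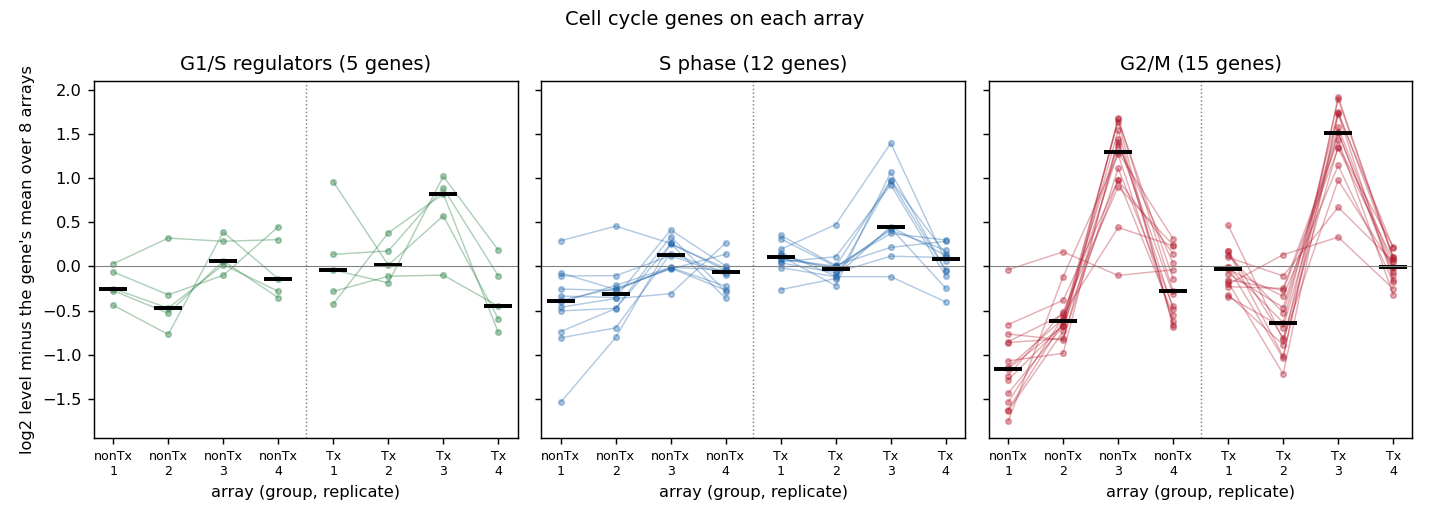
Log2 level of each of 32 members minus that gene's mean over 8 arrays (y axis) on each array (x axis), in panels by phase; points are genes, thin lines join the values of a gene within a group and black bars are medians. The G2/M median was 1.30 on nonTx replicate 3 and 1.51 on Tx replicate 3, and at most -0.01 on the other 6 arrays.

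Measured as the log2 level minus each gene's mean over the 8 arrays, the G2/M median was -1.16, -0.62, 1.30 and -0.28 on nonTx replicates 1 to 4 and -0.03, -0.64, 1.51 and -0.01 on Tx replicates 1 to 4. The summed G2/M signal, in units of the array's 75th percentile, was 15.8 and 18.5 on the arrays numbered 3 and 3.30 to 6.93 on the other 6. The S phase genes showed a smaller step of this kind, with medians of -0.40, -0.31, 0.13 and -0.06 in nonTx and 0.10, -0.03, 0.44 and 0.08 in Tx. For the G1/S regulators the medians were -0.25, -0.47, 0.06 and -0.14 in nonTx and -0.04, 0.02, 0.82 and -0.45 in Tx.

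The array numbered 3 was the highest of its group in both groups for 14 of 15 G2/M genes (93.3%), 9 of 12 S phase genes and 2 of 5 G1/S regulators (40.0%). Over the 32 members this held for 25 (78.1%), against 1247 of 16497 genes tested (7.56%). With scaling to the spike-in RNAs, chosen after seeing the data, it held for 15 members, against 83 of 16497 genes (0.503%). By the brightest probes, Cdk1 was the 1 G2/M exception, and its result depended on the probe. Its brightest probe, annotated to an Ensembl transcript, stayed between 38 and 63 on all 8 arrays. Its other tested probe, annotated to the RefSeq mRNA, had signals of 10.0, 12.7, 61.8 and 16.3 in nonTx and 38.0, 21.1, 82.7 and 27.8 in Tx, again with the array numbered 3 highest in each group. Top2a and Tyms, counted by their brightest probes, each had another tested probe that departed from this. That Top2a probe had Tx signals of 14.6, 17.0, 13.6 and 12.9, with Tx replicate 2 highest after scaling. That Tyms probe was highest on nonTx replicate 1 and Tx replicate 2 after scaling. Of 8 probes for the 6 members without a tested probe, 3 (for Aurkb, Bub1b and Tpx2) were well above background on the array numbered 3 of both groups and on no other array.

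The wider pathway was read from lists of other genes. Among 36 other mitosis genes with a tested probe, 23 (63.9%) were highest on the array numbered 3 of both groups, and among 37 other replication genes 15 (40.5%). The share was 4 of 26 (15.4%) for other cyclins, CDKs and E2Fs, 1 of 13 (7.69%) for CDK inhibitors and pocket proteins, which hold cells out of the cycle, 2 of 16 (12.5%) for DNA damage and p53 target genes and 2 of 16 (12.5%) for histone genes.

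**Figure D2:**
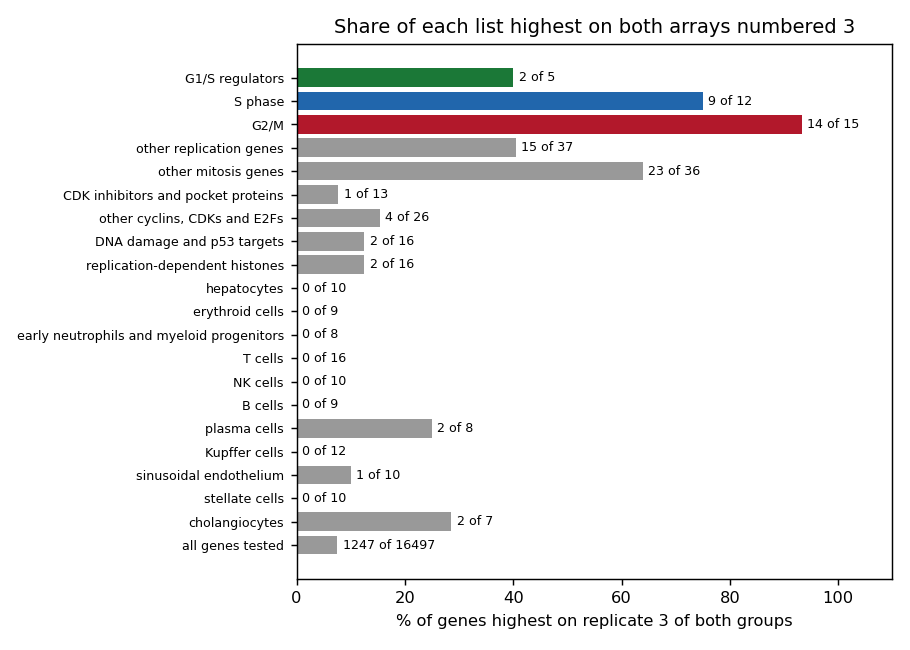
Percent of genes with a tested probe in each list that were highest on the array numbered 3 of both groups (x axis), with the count beside each bar; coloured bars are the members by phase and grey bars the other pathway lists, cell type markers and all genes. G2/M stands at 93.3%, other mitosis genes at 63.9% and all genes tested at 7.56%.

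Markers of cell types that a liver sample can hold were read on the same arrays. Of 109 tested markers in 11 lists, 5 (4.59%) were highest on the array numbered 3 of both groups: 2 of 8 plasma cell, 2 of 7 cholangiocyte and 1 of 10 sinusoidal endothelial markers. Summed erythroid markers, in units of the 75th percentile, were 915 on nonTx replicate 3 against 661 to 946 on the other nonTx arrays, and 529 on Tx replicate 3 against 460 to 1268. Hba-a1 alone gave 203085 of the unscaled erythroid signal of 264402 on nonTx replicate 3, and 96595 of 121518 on Tx replicate 3. Of the 9 erythroid markers, 2 were highest of their group on nonTx replicate 3 and 1, Tfrc, on Tx replicate 3. Early neutrophil markers, of which S100a9 was the brightest, summed to 8.28 and 10.0 on the arrays numbered 3, the lowest of each group. Gene by gene, 5 of these 8 markers were lowest of their group on nonTx replicate 3 and 3 on Tx replicate 3. Another 2, Elane and Cd34, were highest of the Tx group on Tx replicate 3. T cell markers summed to 30.6 on nonTx replicate 3, within the 29.4 to 32.4 of the other nonTx arrays, and to 34.5 on Tx replicate 3, within 28.9 to 43.1. Cd4 alone gave 4114 of the unscaled T cell signal of 7920 on Tx replicate 3. As a median deviation from each gene's mean over the 8 arrays, T cell markers stood at 0.28 on nonTx replicate 3. On Tx replicate 3 they stood at -0.34, the lowest of the 8 arrays. B cell markers summed to 6.26 on nonTx replicate 3, within 5.79 to 6.51, and to 5.45 on Tx replicate 3, the lowest of that group. Well above background were 56.6% and 52.2% of the probes on the arrays numbered 3, and 85 and 94 of their spots were outliers, inside the range of the other 6 arrays. Both arrays lay in slide column 3, whose part in the result was not tested. In bulk RNA, the number of dividing cells and the amount of these transcripts per cell cannot be told apart.

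The G2/M members had a wide spread within both groups. The median SD of the G2/M genes on the log2 scale was 1.17 in nonTx and 0.89 in Tx (n = 4 each), against 0.15 and 0.21 for all genes tested. The highest array exceeded the lowest by a median of 5.71-fold in nonTx and 4.14-fold in Tx for G2/M genes, 1.68-fold and 1.54-fold for S phase genes and 1.26-fold and 1.37-fold for all genes tested. An SD above 1 was found for 10 G2/M genes in nonTx and 5 in Tx, and for no S phase or G1/S member. Over all 16497 genes tested it was found for 96 in nonTx and 481 in Tx. The largest was that of Prc1, at 1.40 in nonTx and 1.23 in Tx. Whether the spread itself differed between the groups was tested with limma on absolute deviations from the group mean. None of the 32 members had an unadjusted p under 0.05, against 15.7% of all genes tested, a share above the nominal level, and 0 passed after adjustment.

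**Figure D3:**
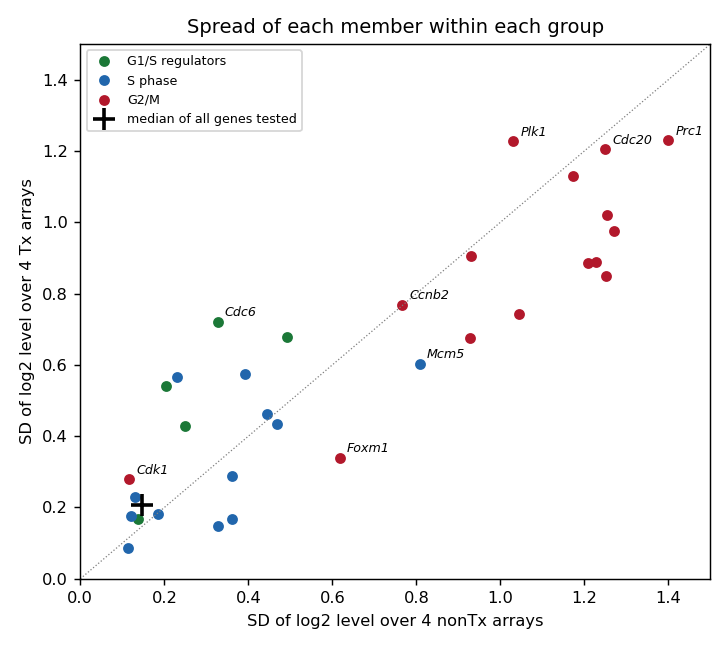
SD of the log2 level over the 4 Tx arrays (y axis) against that over the 4 nonTx arrays (x axis) for 32 members, coloured by phase, with the median of all genes tested as a cross and equal SDs as a dotted line. G2/M genes other than Cdk1 lie far from the cross, whose SDs are 0.15 and 0.21.

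Comparing Tx with nonTx was meant to address the response of these liver transcripts to loss of the thymus. Group coincided with slide row, and no sham operation is stated. Loss of the thymus, surgery and slide row therefore cannot be told apart here. Fitted with limma over all probes, 0 of 30957 probes (0%) had a Benjamini-Hochberg adjusted p under 0.05, so no member passed the threshold, and unadjusted p-values are given as descriptions below. At an unadjusted p under 0.05, 7 of 32 members were higher in Tx, against 8.65% of all genes tested, and 1 was lower, against 5.25%. By phase, 6 of 12 S phase genes, 1 of 5 G1/S regulators and 0 of 15 G2/M genes were among the 7. After scaling, the values of all 4 Tx arrays lay above all 4 nonTx arrays for 1 member, Tyms (5.11% of all genes). They lay below for 1, Ccnd1 (2.95% of all genes). The unscaled signals of Tyms overlapped between the groups, and those of Ccnd1 did not.

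The sign was more uniform than the size of the p-values. Of 32 members, 30 had a higher mean in Tx, and the exceptions were Ccnd1 and Cdc45. The share was 56.3% over all genes tested. The median difference was 0.39 on the log2 scale, with 0.48 for G1/S, 0.36 for S phase and 0.39 for G2/M genes, against 0.03 for all genes. These genes vary together across arrays, so the common sign is not 32 separate observations. All 10 spike-in RNAs were also higher in Tx, by 0.06 to 0.35, after scaling to the 75th percentile. Scaling to the 8 spike-in RNAs with signals over 20 moved the median of all probes from 0.02 to -0.21, and then 24 of 32 members had a higher mean in Tx, with a median of 0.16. With normexp background correction the members' median was 0.27, against 0.04 for all probes.

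**Figure D4:**
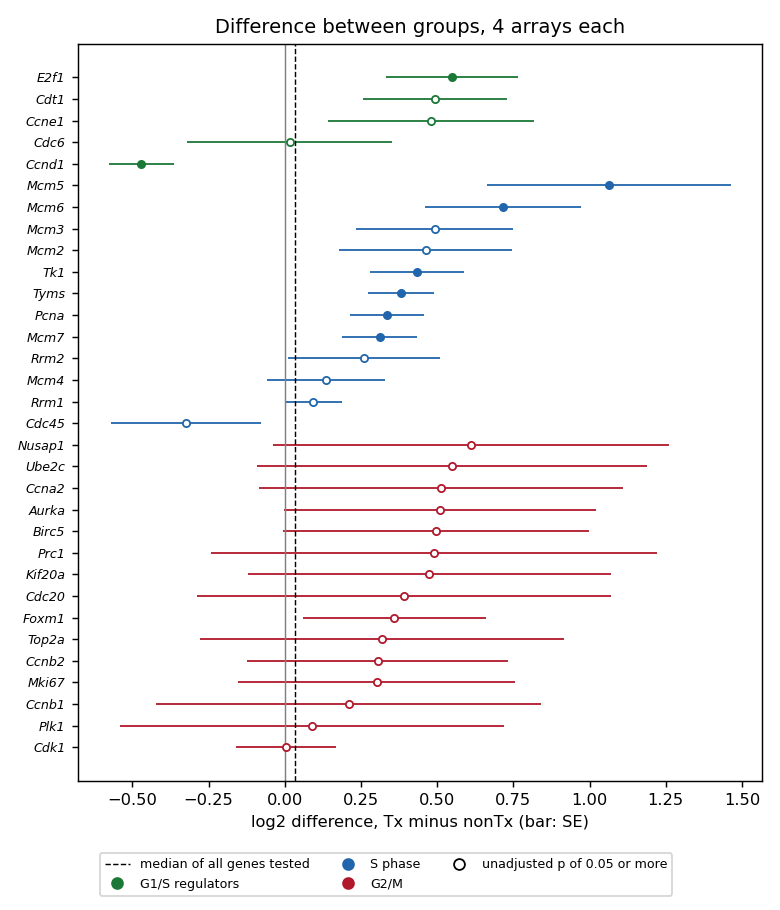
Log2 difference between Tx and nonTx with its standard error (x axis) for each of 32 members (y axis), coloured by phase, 4 arrays a group; filled points have an unadjusted p under 0.05 and the dashed line is the median of all genes tested, 0.03. The G2/M differences, 0.01 to 0.61, have the widest errors.

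Among the G1/S regulators, Ccnd1, the D-type cyclin that responds to mitogens, went against the rest. Its signal was 6616, 7404, 7559 and 7254 in nonTx and 5823, 4961, 4611 and 3531 in Tx. Every Tx array lay below every nonTx array, and the log2 difference was -0.47 ± 0.11 (SE, n = 4 per group, limma unadjusted p = 0.0012, adjusted p = 0.247). It stayed between -0.70 and -0.37 with an unadjusted p of at most 0.011 under 20 alternative settings. Of 16 T cell markers, 10 were also lower in Tx at a limma unadjusted p under 0.05, against 5.25% of all genes tested. They were led by Cd3d at -1.17 ± 0.14, Thy1 at -0.85 ± 0.16 and Cd3g at -0.84 ± 0.17. A higher mean in Tx was found for 3 of the 16, Cd247 at 0.34 ± 0.26, Cd4 at 0.32 ± 0.18 and Cd3e at 0.13 ± 0.12. Summed T cell markers, of which Cd4 was the brightest, were 29.4 to 32.4 in nonTx and 28.9 to 43.1 in Tx. NK cell markers included 4 of 10 lower at that threshold, led by Txk at -0.95 ± 0.24, Il2rb at -0.85 ± 0.25 and Klrd1 at -0.44 ± 0.14. Txk and Klrb1c, another of the 4, were well above background on 4 nonTx arrays but on only 2 and 1 Tx arrays. Lef1, among the lower T cell markers, was so on 4 nonTx arrays and 1 Tx array. These genes passed the filter through nonTx alone, so being tested and being lower in Tx are not independent for them. Another 4 of the 10 NK cell markers had a higher mean in Tx, Ncr1 at 0.23 ± 0.29, Gzmb at 0.07 ± 0.41, Gzma at 0.06 ± 0.34 and Prf1 at 0.03 ± 0.20. The NK cell sums, with Gzma the brightest gene, were 5.45 to 14.4 in nonTx and 6.10 to 11.6 in Tx. The part of these cells in the Ccnd1 values was not tested.

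E2f1, a transcription factor that opens the S phase programme, had 76, 58, 92 and 65 in nonTx and 111, 86, 130 and 64 in Tx. Its scaled levels overlapped in the 2 groups, with a difference of 0.55 ± 0.22 (unadjusted p = 0.030, adjusted p = 0.348). Cdt1, which loads the MCM helicase at origins, had 526, 413, 609 and 467 in nonTx and 666, 456, 969 and 531 in Tx, a difference of 0.49 ± 0.24 (unadjusted p = 0.063). Ccne1, cyclin E, differed by 0.48 ± 0.34, with a nonTx range of 76 to 179 and a Tx range of 70 to 304. Cdc6, the partner of Cdt1 in helicase loading, had 35, 26, 32 and 45 in nonTx and 29, 39, 49 and 16 in Tx. The Cdc6 difference was 0.02 ± 0.34, and its SD in Tx, 0.72, was the largest of any G1/S regulator.

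The S phase genes held 6 of the 7 higher members. Tyms, which makes thymidylate, had 1106, 1000, 1254 and 1025 in nonTx and 1534, 1094, 1304 and 1211 in Tx. Its scaled levels did not overlap, and the difference was 0.38 ± 0.11 (unadjusted p = 0.0053, adjusted p = 0.290). The other Tyms probes gave 0.25 ± 0.11 and -0.14 ± 0.11, the last annotated to an Ensembl transcript, so the probes disagreed in sign. Tk1, the salvage kinase for thymidine and the brightest S phase member, had 2616, 2562, 2784 and 3931 in nonTx and 5034, 3005, 3188 and 3270 in Tx. Here nonTx replicate 4 lay within the Tx range after scaling, and the difference was 0.43 ± 0.15 (unadjusted p = 0.019, adjusted p = 0.324). Both other tested Tk1 probes were higher in Tx, by 0.56 ± 0.17 and 0.49 ± 0.20.

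Pcna, the sliding clamp of DNA polymerases, had 2500, 2612, 3156 and 2925 in nonTx and 3844, 2722, 3361 and 2806 in Tx. Its difference was 0.34 ± 0.12 (unadjusted p = 0.019), with nonTx replicate 3 level with the lowest Tx array after scaling. The MCM2 to MCM7 subunits form the replicative helicase. Mcm6 had 1205, 1192, 2239 and 1821 in nonTx and 2867, 1747, 3170 and 1734 in Tx, a difference of 0.72 ± 0.26 (unadjusted p = 0.019). Mcm5 had 60, 91, 201 and 153 in nonTx and 218, 201, 350 and 135 in Tx, and its difference of 1.06 ± 0.40 (unadjusted p = 0.024) was the largest of the 32 members by their brightest probes. In both MCM genes nonTx replicates 1 and 2 were the low arrays and the groups overlapped. Mcm7 differed by 0.31 ± 0.12 (unadjusted p = 0.030), Mcm3 by 0.49 ± 0.26, Mcm2 by 0.46 ± 0.28 and Mcm4 by 0.13 ± 0.19. The 4 tested Mcm3 probes all had a higher mean in Tx. The ribonucleotide reductase subunits Rrm1 and Rrm2, which supply deoxynucleotides, differed by 0.09 ± 0.09 and 0.26 ± 0.25. Cdc45, a helicase cofactor, differed by -0.32 ± 0.25 at signals of 9.4 to 21.0.

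**Figure D5:**
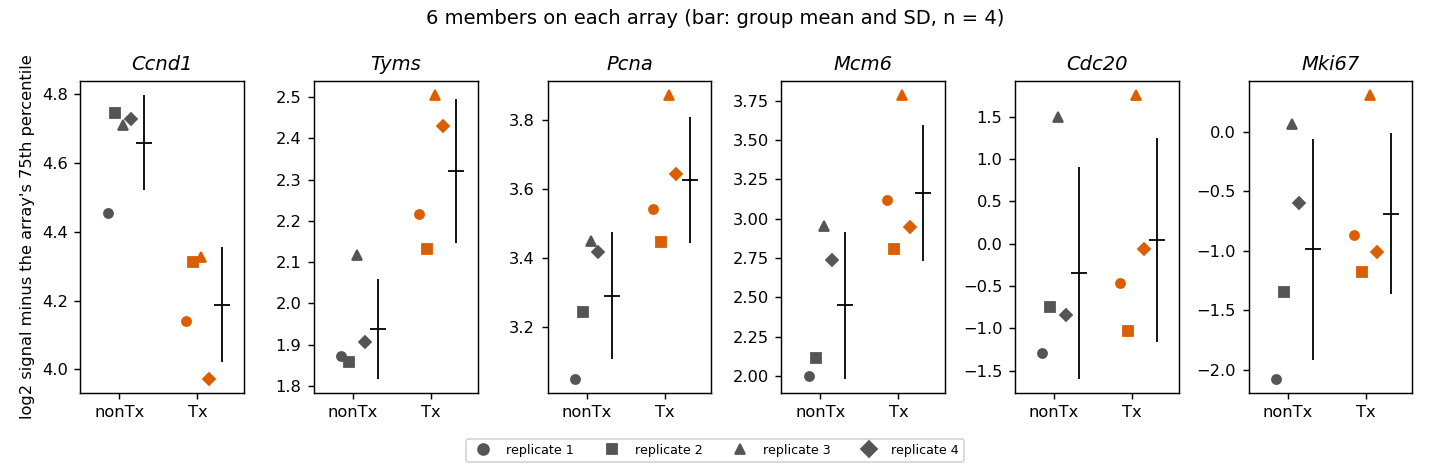
Log2 signal minus the array's 75th percentile (y axis, a separate range in each panel) for 6 members on 4 nonTx and 4 Tx arrays (x axis), with symbols for the replicate number and bars for the group mean and SD. Ccnd1 and Tyms do not overlap between groups, while in Cdc20 and Mki67 the replicate 3 symbol stands above the others in both groups.

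In every G2/M gene except Foxm1 the difference between groups was smaller than its standard error. Foxm1 had the smallest p (adjusted p = 0.586), with a difference of 0.36 ± 0.30, followed by Aurka at 0.51 ± 0.51 and Birc5 at 0.50 ± 0.50. Mki67 differed by 0.30 ± 0.45, Top2a by 0.32 ± 0.60, Prc1 by 0.49 ± 0.73, Cdc20 by 0.39 ± 0.68 and Ube2c by 0.55 ± 0.64. The mitotic cyclins Ccna2, Ccnb1 and Ccnb2 differed by 0.51 ± 0.60, 0.21 ± 0.63 and 0.31 ± 0.43. Plk1, a mitotic kinase, differed by 0.09 ± 0.63, the kinesin Kif20a by 0.47 ± 0.59 and the spindle protein Nusap1 by 0.61 ± 0.65. The Cdk1 probes gave 0.01 ± 0.16 and 1.12 ± 0.60, and the other tested Top2a probes gave 0.07 ± 0.44 and -0.31 ± 0.27.

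The G2/M median rested on single arrays. It was 0.39 on all arrays, 0.03 without Tx replicate 3, 0.08 without nonTx replicate 1 and 0.26 without nonTx replicate 2, and was 0.67 without Tx replicate 2 and 0.90 without nonTx replicate 3. Without both arrays numbered 3, a setting chosen after seeing the data, it was 0.44. The count of members higher in Tx at an unadjusted p under 0.05 was 7 on all arrays, against 8.65% of all genes. It was 2 without nonTx replicate 1 (6.26% of all genes), 2 without nonTx replicate 2 (6.01%) and 3 without Tx replicate 3 (6.15%). It was 12 without nonTx replicate 3 (6.80%) and 9 without both arrays numbered 3 (4.55%). Scaling changed both figures: the count was 4 with quantile normalization (4.77% of all genes), 8 with median scaling (18.5%) and 1, Mcm5, with scaling to the spike-in RNAs (0.891%).

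The other genes of the pathway were counted in the same way, against 8.65% of all genes higher and 5.25% lower in Tx at an unadjusted p under 0.05. Among 37 other replication genes, 5 were higher (13.5%) and 3 lower (8.11%). They were led by Ung, a uracil glycosylase, at 1.40 ± 0.39, the histone chaperone subunit Chaf1b at 0.73 ± 0.22 and the polymerase subunit Pole2 at -1.23 ± 0.41. Among 36 other mitosis genes, 2 were higher (5.56%) and 1 lower (2.78%). Ncaph, a condensin subunit, was at 0.79 ± 0.32 and the centromere gene Cenpk at 0.57 ± 0.23. Hmmr, a spindle-associated hyaluronan receptor, was at -0.35 ± 0.13 with no overlap between groups. Of 16 histone genes, 3 were higher (18.8%): H4c3 at 0.58 ± 0.23, H2ac11 at 0.48 ± 0.21 and H2az1, which encodes a variant made outside S phase too, at 0.25 ± 0.11. None had an unadjusted p under 0.05 among 13 CDK inhibitors and pocket proteins (smallest p for Rb1, 0.18 ± 0.11), 26 other cyclins, CDKs and E2Fs (Lin54, 0.17 ± 0.08) or 16 DNA damage and p53 target genes (Mdm2, 0.19 ± 0.09).

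Over all genes tested, 8.65% were higher and 5.25% lower in Tx at a limma unadjusted p under 0.05. Some marker lists held genes higher in Tx at that p, as 7 of the 32 cell cycle members were. Plasma cell markers had 2 of 8, Jchain at 1.36 ± 0.22 and Mzb1 at 0.53 ± 0.20. Of the 8, 5 had a higher mean in Tx and 3 a lower, down to -0.62. The plasma cell sums were 139 to 148 in nonTx and 139 to 147 in Tx. Early neutrophil markers had 2 of 8 at that p, S100a9 at 0.66 ± 0.23 and S100a8 at 0.56 ± 0.24. Of the 8, 6 had a higher mean in Tx and 2 a lower, with a median difference of 0.04. The early neutrophil sums were 8.28 to 9.84 in nonTx and 10.0 to 14.6 in Tx, with S100a9 the brightest gene. B cell markers had 1 higher (Blnk, 0.59 ± 0.24) and 1 lower (Cr2, -0.45 ± 0.15) of 9. The part of these cell types in the members' differences was not tested. In the remaining lists the smallest p belonged to Ttr among hepatocyte markers (-0.37 ± 0.07), Pdgfrb among stellate cell markers (-0.29 ± 0.11), Clec4g in sinusoidal endothelium (0.17 ± 0.09), Cd163 in Kupffer cells (0.49 ± 0.24), Ermap in erythroid cells (-0.29 ± 0.19) and Tspan8 in cholangiocytes (0.38 ± 0.25).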

How the data were processed

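RNA of 4 Tx and 4 nonTx liver samples was labelled (0.5 ug, per the labels' protocols) and read on 1-colour Agilent arrays. Per the file headers, the authors' deposited spot intensity was background-subtracted by Feature Extraction 10.7.1.1 (version 9.1 in the submitters' processing notes). The deposited table's log2 values are these intensities scaled to the 75th percentile and centred per probe, which was found by rebuilding them within 0.00161.

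Control spots were left out, outlier spots were set to missing and spots of a probe were averaged. Intensities on the log2 scale, less each array's 75th percentile, were fitted with limma 3.58.1 in R 4.3.3 (lmFit, eBayes with a variance trend) over 30957 probes, and p-values were adjusted by Benjamini-Hochberg (threshold 0.05). Tested probes had a minimum of 2 values per group and passed the background filter on 3 or more arrays of 1 group. Spread was fitted the same way on absolute deviations. Both fits were tested on simulated data. The number of arrays limits the precision.

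Members and lists were chosen with earlier results of these data known. Values on every array are given for Mki67, Top2a, Cdk1, Ccnd1, Pcna, the 3 smallest p, the brightest and the most variable member of each phase; other lists give up to 3 genes by smallest p. Each alternative (background correction, scaling, filter, probe choice, variance, replicate block, left-out arrays) changed 1 choice at a time.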

Additional observations from a re-analysis of the deposited data

Results flagged for a closer look

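Among 64 groups of 4 arrays (32 members in each group), 4 had 1 array whose gap to the nearest other array exceeded Dixon's 95% critical value as a share of the group's range. Chance flags about 1 in 20 groups. Rrm1 on nonTx replicate 3 was high, with a gap of 0.967 of the range, although the range itself was only 1.17-fold. Top2a on Tx replicate 3 was high (0.949), as was Ccnb2 on nonTx replicate 3 (0.832). Ccnd1 on nonTx replicate 1 was low (0.875). Over all genes tested, 869 (5.27%) were flagged in nonTx and 945 (5.73%) in Tx. Replicate 3 was the high array for 87 of the 869 and 91 of the 945.

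Outside the tested probes, 3 member probes were well above background on 1 Tx array and on no nonTx array. A Kif11 probe had a signal of 54.3 on Tx replicate 2, another Ccnb1 probe 19.2 on Tx replicate 1 and a second Cdc45 probe 14.6 on Tx replicate 3. These are single arrays with no replicate.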

How the results depend on the processing

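The number of members higher in Tx at an unadjusted p under 0.05 was 7 in the fit as reported, 4 with quantile normalization, 1 with scaling to the spike-in RNAs, 13 with the replicate block (against 7.99% of all genes) and 2 to 12 when 1 array was left out. The same-numbered arrays correlated at -0.01 to 0.10 in their deviations from the group means, and not every array correlated best with its own number. The numbers were therefore not taken as pairing the samples. Each block holds 1 array of each group, so the block cannot change the differences or the medians. The replicate 3 count and the spread count were not made with the block. The number lower in Tx was 1 and the number past the adjusted threshold 0 in each of 20 settings. The S phase median was 0.13 with spike-in scaling, and left-out arrays moved the medians to 0.08 to 0.65 over all members, 0.23 to 0.58 for G1/S, 0.23 to 0.42 for S phase and 0.03 to 0.90 for G2/M. Replicate 3 was highest in both groups for 25 members as reported, 15 with spike-in scaling and up to 29 in other settings. The 29 came with no filter on dim probes, which also takes in members without a tested probe and so counts over more members. A spread difference at an unadjusted p under 0.05 was seen for 2 members with normexp background correction and for 1 each with quantile normalization, with no filter and with probes well above background on all 8 arrays. The cause of these shifts was not tested. Slide or scan as a block was not run, since there was 1 slide and 1 scan. Spike-in scaling and leaving out both arrays numbered 3 were chosen after seeing the data. Signals near background, as for Cdc45 and Nusap1, limit the precision of dim members.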
